A study of Mus musculus with 10 samples.

Results

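Receptors of the vasodilator pathways were examined in the thoracic aorta of mice with a smooth muscle deletion of *Prdm16*, and the PRDM16 peaks of cultured fibroblasts were searched in and near their genes. Positions are those of GENCODE M21 on GRCm38. The 10 genes were taken by name from the 55426 genes of the expression table. They encode receptors for prostanoids (*Ptger2*, *Ptger3*, *Ptger4*, and *Ptgir*), adenosine (*Adora2a* and *Adora2b*), calcitonin gene-related peptide (CGRP) and adrenomedullin (*Calcrl*), and natriuretic peptides (*Npr1*, *Npr2*, and *Npr3*).

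RNA-Seq covered 3 thoracic aorta samples from control mice (Prdm16f/f, floxed *Prdm16* alleles without Cre) and 3 from Prdm16SMKO mice (Prdm16f/f, SMMHC-CreERT2), 1 library per aorta, and both groups therefore carry the floxed alleles. The methods give a C57BL/6J background and tamoxifen by gavage at 75 mg/kg/day for 5 days from 8 weeks of age, followed by a washout of 2 weeks. They do not say whether the sequenced controls received tamoxifen or how old the sequenced mice were. The Cre is driven by the smooth muscle myosin heavy chain promoter and its transgene sits on the Y chromosome, so the deletion was directed to smooth muscle in males, while the library was made from the whole vessel, and the sex of the controls is not in the labels. ChIP-Seq came from primary vascular fibroblasts, which are not smooth muscle cells, that carried a lentiviral Flag-PRDM16 construct or its empty vector (48 hours of infection, then a week in puromycin at 2 μg/mL), precipitated with anti-Flag antibody, 1 library each.

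Most vasodilator receptors work through cyclic nucleotides. The receptors encoded by *Ptger2*, *Ptger4*, *Ptgir*, *Adora2a*, *Adora2b*, and *Calcrl* couple to the stimulatory G protein and raise cAMP, whereas the receptor encoded by *Ptger3* couples mainly to inhibitory G proteins and lowers cAMP. *Npr1* and *Npr2* encode membrane guanylyl cyclases that make cGMP when a natriuretic peptide binds, and *Npr3* encodes a receptor with no cyclase domain that removes the peptides from the circulation. In smooth muscle, cAMP and cGMP lower cytosolic calcium and reduce the force of contraction.

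In each aorta, 13331 to 14007 genes stood at a TPM value of at least 1, and mitochondrial genes held 14.7% to 26.5% of the TPM of an aorta. TPM, a measure of transcript abundance that is scaled to transcript length and to the library total, do not keep the number of reads, and the depth of each value is unknown here. *Prdm16* itself, the floxed gene, stood at 56.1, 47.6, and 40.3 TPM in control and at 23.3, 33.3, and 23.4 TPM in Prdm16SMKO aortas. The groups did not overlap, and the log2 difference of −0.85 (standard error 0.18) had an adjusted *P* value by limma of 0.072. After median-ratio rescaling of the aortas the difference was −0.73 and the adjusted *P* value by limma 0.024. The 7 smooth muscle markers examined were all expressed, and their summed TPM was 20750 to 24190 in control and 13820 to 17860 in Prdm16SMKO aortas, without overlap between the groups. Of these markers 0 had an adjusted *P* value under 0.05 by limma and 4 were lower without overlap, beside 1.07% and 14.9% of all genes tested, and the summed markers of endothelium, fibroblasts, macrophages, adipocytes, skeletal muscle, blood, and nerve overlapped between the groups. In a whole aorta, fewer cells of a type and less RNA per cell cannot be told apart.

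The receptors differed widely in level. *Npr1* was the most abundant with 115.7 ± 22.4 TPM (mean ± SD, n = 6 aortas), a mean above that of 95.3% of the genes tested. *Npr2* followed at 49.4 ± 6.27 TPM, *Calcrl* at 23.4 ± 6.04 TPM, and *Npr3* at 10.2 ± 2.33 TPM (SD, n = 6 each). The prostanoid and adenosine receptors were all lower. *Ptger3* had 3.86 ± 0.938 TPM, *Adora2a* 2.51 ± 1.26 TPM, *Ptgir* 2.06 ± 0.383 TPM, *Ptger4* 2.00 ± 0.661 TPM, and *Adora2b* 0.572 ± 0.213 TPM (SD, n = 6 each). *Ptger2*, at 0.03 to 0.27 TPM, was the only member below the mean of 0.5 TPM required for testing. Neighbours in this order were compared within each aorta by an exact 2-sided sign permutation test over the 6 aortas, with Benjamini-Hochberg adjustment over the 9 pairs. The order held in 6 of 6 aortas for 7 pairs (adjusted *P* = 0.040 by the exact test, from the smallest *P* value it can give, 0.031). Since the order was set by the means of these same aortas, these *P* values are not separate support for it. *Adora2a* and *Ptgir*, and *Ptgir* and *Ptger4*, stood in that order in 3 of 6 aortas each and did not differ beyond their spread (adjusted *P* = 0.81 for both by the exact test).

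**Figure D1:**
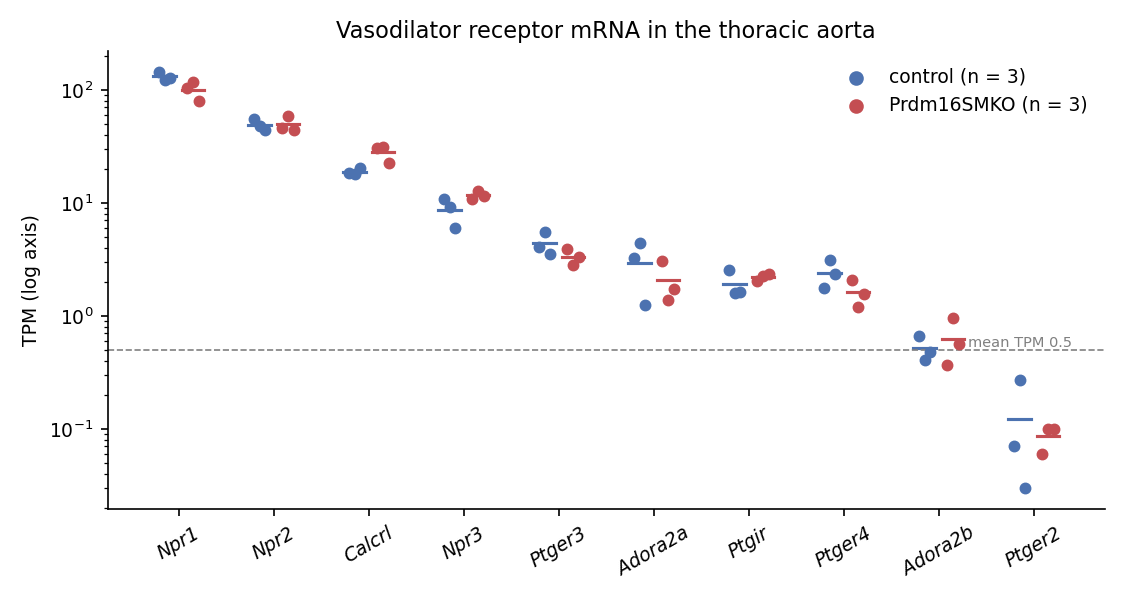
TPM on a log axis of the 10 receptor genes, ordered by their mean, in control and Prdm16SMKO aortas. Each point is 1 aorta, the short lines are group means (n = 3 each), and the dashed line marks the mean TPM of 0.5 required for testing. The levels run from a mean of 115.7 TPM for *Npr1* to 0.105 TPM for *Ptger2*.

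The question asked of these genes was whether the mRNA of vasodilator receptors changed with the loss of smooth muscle PRDM16. Relaxation of vessels is not part of these data. The paper measured it in mesenteric artery rings, with acetylcholine and sodium nitroprusside, and found no significant difference between the groups. Each gene was compared between the groups by limma on the values log2(TPM + 0.1), a scale that understates the change of low genes. *P* values were adjusted by the Benjamini-Hochberg method across 15668 genes, those whose mean TPM reached 0.5, and a gene whose adjusted value was under 0.05 is referred to as called. Of the 9 receptors tested by limma, 0 were called, where 1.07% of all genes tested were (61 genes or 0.389% higher, 107 genes or 0.683% lower). At an unadjusted *P* value under 0.05, 2 of the 9 passed, *Calcrl* and *Npr1*, where 12.7% of all genes did (3.22% higher and 9.45% lower). The groups did not overlap for 3 receptors, with *Calcrl* and *Npr3* higher and *Npr1* lower in Prdm16SMKO aortas. Over all genes tested, 19.0% had groups without overlap, 4.08% higher and 14.9% lower. An exact permutation test of 3 against 3 aortas cannot give a 2-sided *P* value under 0.1.

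The median log2 difference of the 9 tested receptors was 0.011, beside −0.12 for all genes tested. Median-ratio rescaling, in which each aorta is divided by its typical ratio to an average of all 6, moved the median of all genes by 0.12 to 0.0046. Differences of the receptors are therefore also given after this rescaling, where 413 genes were called (2.64%, with 1.28% higher and 1.36% lower) and again none of the 9 receptors. After rescaling, 4 receptors had groups without overlap, the 3 above and *Npr2*, beside 21.7% of all genes tested (11.0% higher and 10.7% lower).

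**Figure D2:**
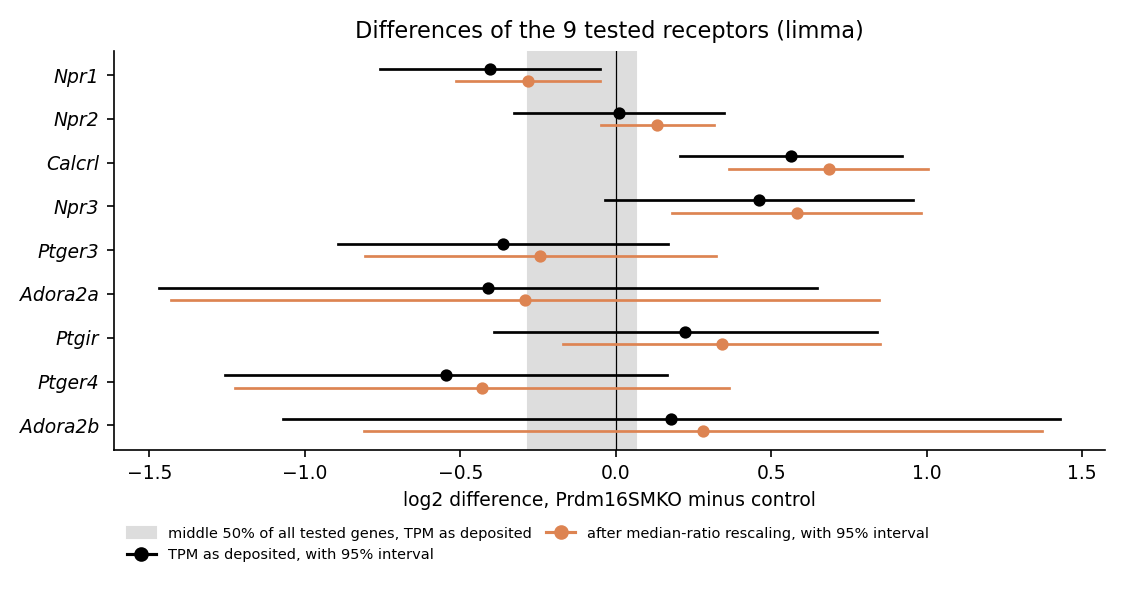
Log2 difference of the 9 tested receptors between Prdm16SMKO and control aortas with its 95% interval from limma (n = 3 each), from TPM as deposited and after median-ratio rescaling. The shaded band holds the middle of all tested genes, from −0.28 to 0.064, TPM as deposited, and the point of *Calcrl* from the same TPM lies furthest to its right.

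*Npr1* (ENSMUSG00000027931, chr3:90450591-90465866, reverse strand), the guanylyl cyclase receptor for atrial and B-type natriuretic peptides, had 144.9, 122.1, and 126.8 TPM in control and 102.8, 118.3, and 79.5 TPM in Prdm16SMKO aortas. Every Prdm16SMKO value was below every control value, and the narrowest gap lay between Prdm16SMKO aorta 2 and control aorta 2. The mean of the Prdm16SMKO group was 76.3% of the control mean (log2 difference −0.40, 95% interval −0.76 to −0.052), with an adjusted *P* value by limma of 0.32. The difference was −0.25 without Prdm16SMKO aorta 3. After rescaling of all 6 aortas, it was −0.28 and the adjusted *P* value by limma 0.23. The summed smooth muscle markers were also lower in every Prdm16SMKO aorta, with a log2 ratio of the group means of −0.47. Per 1000 TPM of the 7 smooth muscle markers, *Npr1* had 5.99, 5.75, and 6.11 TPM in control and 6.36, 6.62, and 5.76 TPM in Prdm16SMKO aortas. The groups overlapped on this measure. Per 100 TPM of the endothelial markers they also overlapped, with 74.8 to 97.3 TPM in control and 55.1 to 117 TPM in Prdm16SMKO aortas. Both measures were chosen after the values were seen and were not tested. Among the 7 smooth muscle markers *Acta2* had the highest level, with means of 11570 TPM in control and 7512 TPM in Prdm16SMKO aortas. Ratios to the smooth muscle sum, here and below, therefore lean on *Acta2*. The paper reports less *Myh11*, *Acta2*, *Tagln*, and *Cnn1* mRNA in cultured smooth muscle cells after *Prdm16* knockdown. It also cites less *Acta2* mRNA in the Prdm16SMKO aorta from an earlier study. In the medial layer of Prdm16SMKO thoracic aortas, it found less of the proteins encoded by *Acta2*, *Cnn1*, and *Tagln*. The sum is thus not a measure of cell number alone.

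*Npr2* (ENSMUSG00000028469, chr4:43631935-43651244, forward strand), the guanylyl cyclase receptor for C-type natriuretic peptide, had TPM of 55.2, 47.5, and 44.5 in control and 45.9, 59.1, and 44.0 in Prdm16SMKO aortas. The groups overlapped, and the log2 difference was 0.011 (95% interval −0.33 to 0.35; adjusted *P* = 0.99 by limma). Its direction depended on the aortas and the scale, since the difference was −0.12 without Prdm16SMKO aorta 2, −0.0089 without control aorta 2, and −0.056 without control aorta 3, and 0.13 after rescaling, where all Prdm16SMKO values were above all control values (adjusted *P* = 0.48 by limma). Per 1000 TPM of the smooth muscle markers, *Npr2* had 2.14 to 2.28 TPM in control and 2.84 to 3.31 TPM in Prdm16SMKO aortas. This ratio was also chosen after the values were seen and was not tested.

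*Npr3* (ENSMUSG00000022206, chr15:11839896-11907287, reverse strand), the clearance receptor, had TPM of 10.85, 9.26, and 5.98 in control and 10.86, 12.6, and 11.57 in Prdm16SMKO aortas. The groups were separated by 1 pair of almost equal values, control aorta 1 and Prdm16SMKO aorta 1, and control aorta 3 stood lowest. The Prdm16SMKO mean was 134% of the control mean (log2 difference 0.46, 95% interval −0.036 to 0.96; adjusted *P* = 0.44 by limma). Without control aorta 3 the difference was 0.22, and after rescaling of all 6 aortas it was 0.58 (95% interval 0.18 to 0.98; adjusted *P* = 0.15 by limma). Per 100 TPM of the fibroblast and adventitia markers it had 0.368 to 0.593 TPM in control and 0.641 to 0.988 TPM in Prdm16SMKO aortas. In control aortas *Col1a2* and *Col1a1* had the highest means of these 7 markers, 724.8 and 427.5 TPM. Their means in Prdm16SMKO aortas were 490.2 and 295.2 TPM. Of the 7 markers, 4 had a positive and 3 a negative difference. This ratio therefore leans on these collagen genes. Per 100 TPM of the endothelial markers, the groups overlapped, with 3.53 to 7.29 TPM in control and 5.82 to 12.5 TPM in Prdm16SMKO aortas. Per 1000 TPM of the smooth muscle markers, *Npr3* had 0.288 to 0.449 TPM in control and 0.672 to 0.837 TPM in Prdm16SMKO aortas, without overlap. These ratios were chosen after the values were seen and were not tested. The paper's own analysis of these aortas lists *Npr3* as upregulated, with a PRDM16 peak in its promoter. Of other genes named below, it lists *Pde5a* as upregulated and *Furin* and *Erg* as downregulated. Each of these genes has an adjusted value under 0.05 in the paper's list, from a test that its text does not name. limma on TPM, a different analysis of the same aortas, called none of them. A gene not called here is therefore not shown to be unchanged.

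The balance within the natriuretic peptide receptors does not move with the scaling of a library. *Npr1* made up 68.7%, 68.3%, and 71.5% of the summed TPM of the 3 receptors in control aortas and 64.4%, 62.3%, and 58.9% in Prdm16SMKO aortas. The share of *Npr3* was 5.14%, 5.18%, and 3.37% in control and 6.80%, 6.63%, and 8.57% in Prdm16SMKO aortas, and that of *Npr2* was 25.9% ± 0.751 and 30.8% ± 1.90 (SD, n = 3 each). The groups did not overlap for any of the 3 shares, and each had the smallest *P* value that the exact permutation test allows, 0.1 (adjusted *P* = 0.27 over 8 shares). The 3 shares are parts of the same sum in each aorta, so they are not separate results, and *Npr2* in TPM overlapped between the groups. In TPM, *Npr1* was 13.2 to 21.2 times as abundant as *Npr3* in control aortas and 6.87 to 9.47 times in Prdm16SMKO aortas.

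**Figure D3:**
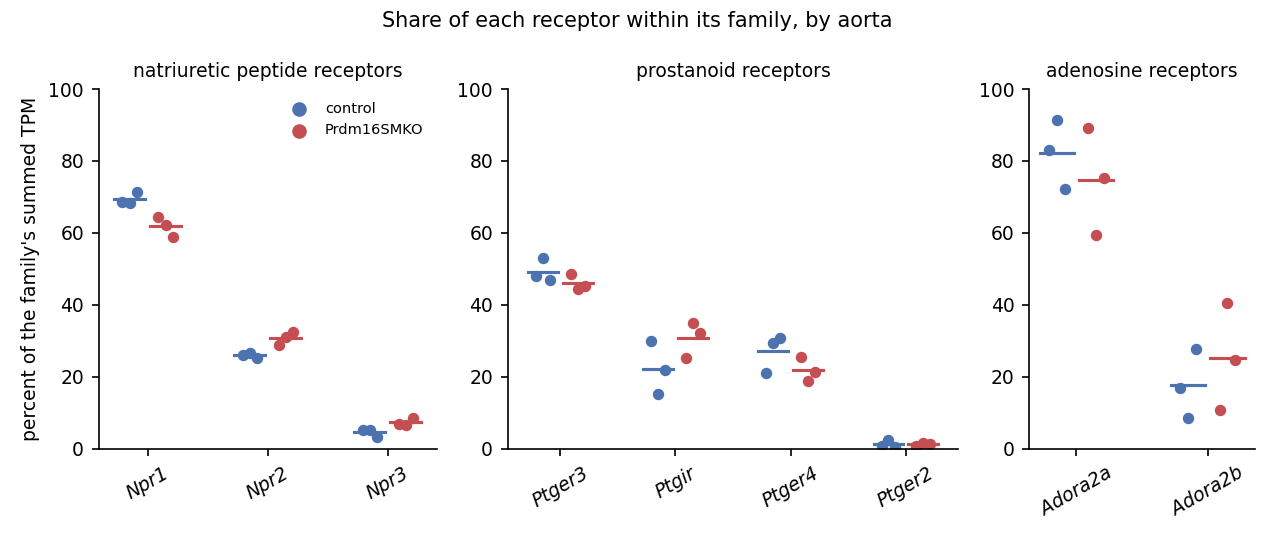
Share of each receptor in the summed TPM of its family, in percent, by aorta, for the natriuretic peptide, prostanoid, and adenosine receptors. Each point is 1 aorta and the short lines are group means (n = 3 each). The mean share of *Npr1* was 69.5% in control and 61.9% in Prdm16SMKO aortas, while the shares of the prostanoid and adenosine receptors overlapped between the groups.

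*Calcrl* (ENSMUSG00000059588, chr2:84330626-84425411, reverse strand) encodes the calcitonin receptor-like receptor, which binds CGRP when paired with the protein encoded by *Ramp1* and adrenomedullin when paired with those of *Ramp2* or *Ramp3*. It had TPM of 18.3, 17.9, and 20.2 in control and 30.6, 31.3, and 22.4 in Prdm16SMKO aortas. All Prdm16SMKO values were above all control values, and Prdm16SMKO aorta 3 was nearest to the control range. The Prdm16SMKO mean was 149.5% of the control mean (log2 difference 0.56, standard error 0.16, 95% interval 0.21 to 0.92), with an adjusted *P* value by limma of 0.17. After rescaling the difference was 0.69 and the adjusted *P* value by limma 0.052, the lowest of its 15 settings, which ranged up to 0.47.

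*Calcrl* is known as a gene of endothelial as well as smooth muscle cells, so its level was set beside the endothelial markers. The summed TPM of the 8 endothelial markers was 149 to 169 in control and 187, 101, and 138 in Prdm16SMKO aortas 1, 2, and 3, with overlap between the groups, and none of the markers was called. *Erg*, an endothelial transcription factor named after its values were seen, was lower without overlap, with 46.1 ± 3.24 TPM in control and 31.7 ± 2.25 TPM in Prdm16SMKO aortas (SD, n = 3 each; adjusted *P* = 0.084 by limma). Per 100 TPM of these markers, *Calcrl* had 12.3, 11.6, and 11.9 TPM in control and 16.4, 31.1, and 16.3 TPM in Prdm16SMKO aortas. Leaving *Erg* out of the markers narrowed the gap, with 18.5, 16.3, and 16.1 TPM in control and 19.8, 46.8, and 20.7 TPM in Prdm16SMKO aortas. The groups were separate on both measures, and Prdm16SMKO aorta 2, with the lowest endothelial sum of the 6, had the highest *Calcrl*. Per 1000 TPM of the smooth muscle markers it had 0.757 to 0.971 TPM in control and 1.62 to 1.89 TPM in Prdm16SMKO aortas. These ratios were chosen after the values were seen and were not tested.

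**Figure D4:**
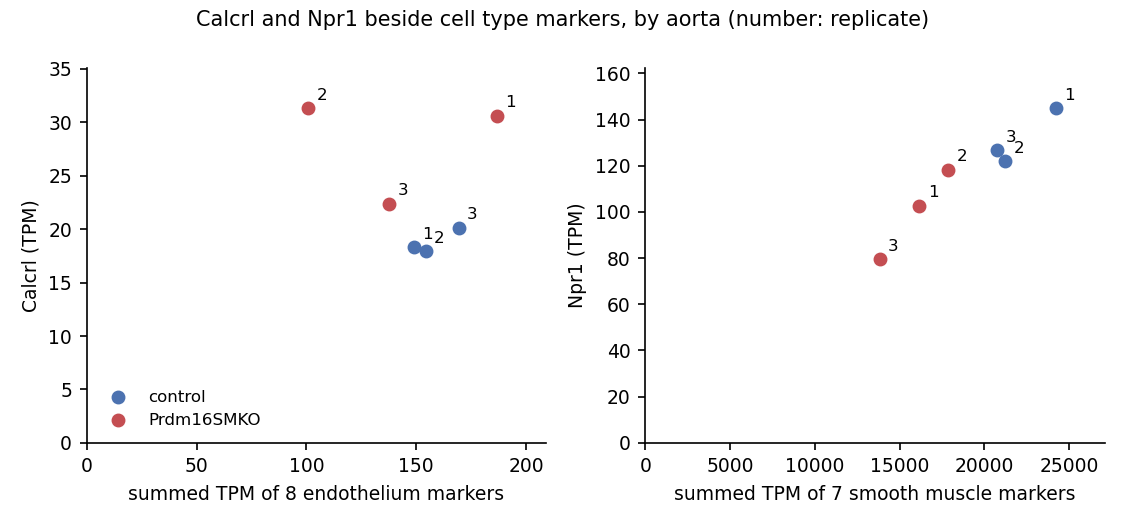
TPM of *Calcrl* against the summed TPM of 8 endothelial markers and of *Npr1* against that of 7 smooth muscle markers, 1 point per aorta, with its replicate number. Prdm16SMKO aortas have higher *Calcrl* over a range of endothelial sums from 101 to 187, while both *Npr1* and the smooth muscle sum are lower in the Prdm16SMKO aortas.

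The receptors that bind prostaglandins overlapped between the groups throughout. *Ptgir* (ENSMUSG00000043017, chr7:16906490-16910905, forward strand), the prostacyclin receptor, had 2.53, 1.58, and 1.64 TPM in control and 2.05, 2.23, and 2.34 TPM in Prdm16SMKO aortas (log2 difference 0.22, 95% interval −0.39 to 0.84; adjusted *P* = 0.78 by limma). *Ptger4* (ENSMUSG00000039942, chr15:5206661-5244187, reverse strand), a prostaglandin E receptor that raises cAMP, had 1.78, 3.09, and 2.33 TPM in control and 2.07, 1.20, and 1.56 TPM in Prdm16SMKO aortas. Control aorta 1 was below Prdm16SMKO aorta 1, and the log2 difference of −0.55 (95% interval −1.26 to 0.17) had an adjusted *P* value by limma of 0.51. *Ptger3* (ENSMUSG00000040016, chr3:157566892-157645888, forward strand), the prostaglandin E receptor coupled to inhibitory G proteins, had 4.04, 5.55, and 3.53 TPM in control and 3.93, 2.82, and 3.30 TPM in Prdm16SMKO aortas (log2 difference −0.36, 95% interval −0.89 to 0.17; adjusted *P* = 0.56 by limma). *Ptger2* (ENSMUSG00000037759, chr14:44988195-45003820, forward strand) was listed at 0.07, 0.27, and 0.03 TPM in control and 0.06, 0.10, and 0.10 TPM in Prdm16SMKO aortas, too low to be tested. These differences moved with single aortas. Without control aorta 2 that of *Ptger3* was −0.18, that of *Ptger4* −0.35, and that of *Ptgir* 0.11, and *Ptger4* was at −0.36 without Prdm16SMKO aorta 2. The difference of *Ptgir* was 0.43 without control aorta 1 and 0.13 without control aorta 3.

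Within the prostanoid receptors, *Ptger3* made up 46.9% to 52.9% of the summed TPM in control and 44.4% to 48.5% in Prdm16SMKO aortas. *Ptgir* held 15.1% to 30% in control and 25.3% to 35.1% in Prdm16SMKO aortas, and *Ptger4* held 21.1% to 30.9% and 18.9% to 25.5%. None of these shares differed beyond the spread between aortas (adjusted *P* = 0.40 for each by the exact permutation test).

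The adenosine receptors also overlapped between the groups. *Adora2a* (ENSMUSG00000020178, chr10:75316877-75334784, forward strand) had 3.22, 4.41, and 1.25 TPM in control and 3.07, 1.39, and 1.72 TPM in Prdm16SMKO aortas, so that control aorta 3 was the lowest of the 6. Its log2 difference was −0.41 (95% interval −1.47 to 0.65; adjusted *P* = 0.75 by limma), and it ranged from −0.048 without control aorta 2, and −0.18 without Prdm16SMKO aorta 2, to −0.92 without control aorta 3. *Adora2b* (ENSMUSG00000018500, chr11:62248984-62266453, forward strand) had 0.66, 0.41, and 0.48 TPM in control and 0.37, 0.95, and 0.56 TPM in Prdm16SMKO aortas (log2 difference 0.18, 95% interval −1.07 to 1.43; adjusted *P* = 0.93 by limma). *Adora2a* held 82.2% ± 9.64 of the adenosine receptor TPM in control and 74.7% ± 14.9 in Prdm16SMKO aortas (SD, n = 3 each; exact permutation *P* = 0.6, adjusted 0.69). The intervals of both genes are wide, and that of *Adora2b* holds a doubling or a halving. With 1 aorta left out, the difference of *Adora2b* ranged from 0.052 without control aorta 2 to 0.45 without Prdm16SMKO aorta 1.

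The genes around these receptors were taken from lists of ligands, partners, and effectors, and limma called 0 genes in any of these lists. Their differences come from TPM as deposited, without rescaling. On that scale, 68.3% of all genes tested had a log2 difference of at most 0.0033, and 14.9% were lower without overlap. Of 7 other receptors of the same families, 4 were tested, and the most abundant were *Tbxa2r*, the thromboxane receptor, and *Adora1*, an adenosine receptor that lowers cAMP. *Tbxa2r* had 27.9 ± 4.70 TPM in control and 19.0 ± 2.77 TPM in Prdm16SMKO aortas (SD, n = 3 each), without overlap (log2 difference −0.55; adjusted *P* = 0.20 by limma). By qPCR of the aorta, the paper found *Tbxa2r* mRNA comparable between the groups. It also reports similar contraction of mesenteric artery rings to a thromboxane agonist. *Adora1* had 4.98 ± 1.73 and 3.21 ± 0.731 TPM (SD, n = 3 each; log2 difference −0.59; adjusted *P* = 0.43 by limma).

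All 7 genes of prostanoid synthesis and breakdown were tested, of which 6 had a negative and 1 a positive difference, with a median of −0.21 beside −0.12 for all genes. *Ptgis*, which makes prostacyclin, was highest among them with 405 ± 22.5 TPM in control and 318 ± 41.3 TPM in Prdm16SMKO aortas (SD, n = 3 each), without overlap (log2 difference −0.36; adjusted *P* = 0.26 by limma). *Ptges3*, a cochaperone also described as a prostaglandin E synthase, had 67.6 ± 3.33 and 58.1 ± 5.33 TPM (SD, n = 3 each; adjusted *P* = 0.47 by limma). *Ptgs2*, the inducible cyclooxygenase, was named after its values were seen. It had 12.2, 9.01, and 7.99 TPM in control and 2.74, 4.96, and 4.75 TPM in Prdm16SMKO aortas, a log2 difference of −1.23 with an adjusted *P* value by limma of 0.072.

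Of the 6 genes of adenosine supply and removal, 2 had a positive and 4 a negative difference. *Entpd1*, which degrades extracellular ATP toward adenosine, had 144.5 ± 20.2 TPM in control and 111 ± 18.3 TPM in Prdm16SMKO aortas (SD, n = 3 each), without overlap (log2 difference −0.39; adjusted *P* = 0.35 by limma). *Slc29a1*, an adenosine transporter, had 120.8 ± 19.2 and 116.8 ± 20.1 TPM (SD, n = 3 each; adjusted *P* = 0.93 by limma).

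Of 9 genes for the ligands and partners of *Calcrl*, 5 were tested, with 1 positive and 4 negative differences. *Ramp1* had 87.3, 83.6, and 82.9 TPM in control and 67.2, 79.4, and 62.0 TPM in Prdm16SMKO aortas. The groups did not overlap, in the direction opposite to that of *Calcrl*, and the log2 difference was −0.29 (adjusted *P* = 0.37 by limma). Over all genes tested the median was −0.12, and 14.9% were lower without overlap. *Ramp1* was 4.11 to 4.77 times as abundant as *Calcrl* in control and 2.20 to 2.77 times in Prdm16SMKO aortas, a ratio formed after the values were seen and not tested. *Ramp2* had 22.19, 22.02, and 18.1 TPM in control and 40.8, 12.3, and 20.2 TPM in Prdm16SMKO aortas (adjusted *P* = 0.97 by limma). Among the Prdm16SMKO aortas, *Ramp2* was highest in aorta 1 and lowest in aorta 2, as was the endothelial sum. *Adm*, which encodes adrenomedullin and was named after its values were seen, had 19.7 ± 3.21 and 14.5 ± 2.76 TPM (SD, n = 3 each), with overlap (adjusted *P* = 0.37 by limma). *Ramp3* was below the level required for testing, and *Calca*, *Calcb*, and *Adm2*, which encode peptide ligands, were listed at 0 in all 6 aortas.

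Of 7 genes for natriuretic peptides and their processing or removal, 3 were tested, with 1 positive and 2 negative differences. *Nppb* was listed at 0 in all aortas and *Nppa* had means of 0.297 TPM in control and 0.420 TPM in Prdm16SMKO aortas. *Nppc*, which encodes C-type natriuretic peptide, was listed at 0 in 4 of the 6 aortas, at 3.27 TPM in control aorta 3, and at 0.11 TPM in Prdm16SMKO aorta 3. *Furin*, a protease that processes peptide precursors, had 37.5 ± 4.58 and 27.7 ± 2.64 TPM (SD, n = 3 each), without overlap (log2 difference −0.43; adjusted *P* = 0.23 by limma). *Mme*, which encodes the peptide-degrading enzyme neprilysin, had 4.51 ± 1.04 and 4.61 ± 1.48 TPM (SD, n = 3 each; adjusted *P* = 0.998 by limma).

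Downstream of the receptors, 19 of 21 genes of the cAMP arm were tested, with 6 positive and 13 negative differences. Their median was −0.086, beside −0.12 for all genes. *Gnas*, the stimulatory G protein subunit, had 887 ± 44.4 TPM in control and 784 ± 38.1 TPM in Prdm16SMKO aortas (SD, n = 3 each; adjusted *P* = 0.49 by limma). *Gnai2*, an inhibitory subunit, had 293 ± 32.6 and 276 ± 39.2 TPM (SD, n = 3 each; adjusted *P* = 0.84 by limma). *Adcy1*, an adenylyl cyclase, was named after its values were seen, with 0.40 to 0.52 TPM in control and 1.64 to 2.23 TPM in Prdm16SMKO aortas (log2 difference 1.83; adjusted *P* = 0.060 by limma).

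In the cGMP kinase arm, 5 of 6 genes were tested, 1 with a positive difference. *Mrvi1*, a substrate of the kinase on the calcium store, had 205 ± 31.6 and 197 ± 30.7 TPM (SD, n = 3 each; adjusted *P* = 0.90 by limma). *Vasp*, another substrate of cyclic nucleotide kinases, had 97.0 ± 16.7 and 85.0 ± 16.03 TPM (SD, n = 3 each; adjusted *P* = 0.68 by limma). The positive difference was that of *Pde5a*, which degrades cGMP and was named after its values were seen. It had 66.9, 54.0, and 54.8 TPM in control and 99.8, 109.0, and 80.2 TPM in Prdm16SMKO aortas, a log2 difference of 0.71 with an adjusted *P* value by limma of 0.068.

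The PRDM16 Flag list was then searched at the receptor genes. It held 11271 peaks from 1 library, with a median fold enrichment at the summit of 5.27 over the local background, and was compared with no replicate. A promoter peak is one whose centre lies within 2 kb of the transcription start site (TSS) of a curated RefSeq transcript of GRCm38. Of the 10 receptor genes, 4 had a promoter peak, *Ptger4*, *Adora2b*, *Npr2*, and *Npr3*, where 26.1% of all 26151 genes with such a transcript and 43.3% of those tested for expression did. The share among the receptors is thus near the background, and the same 4 genes had one with windows of 1 kb and 5 kb, by the summit, and at a q of at most 0.001 or 1e-05. The vector Flag list of 67 peaks had none at these genes, and its nearest peak to any of them lay 2890 kb away, from *Npr3*.

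**Figure D5:**
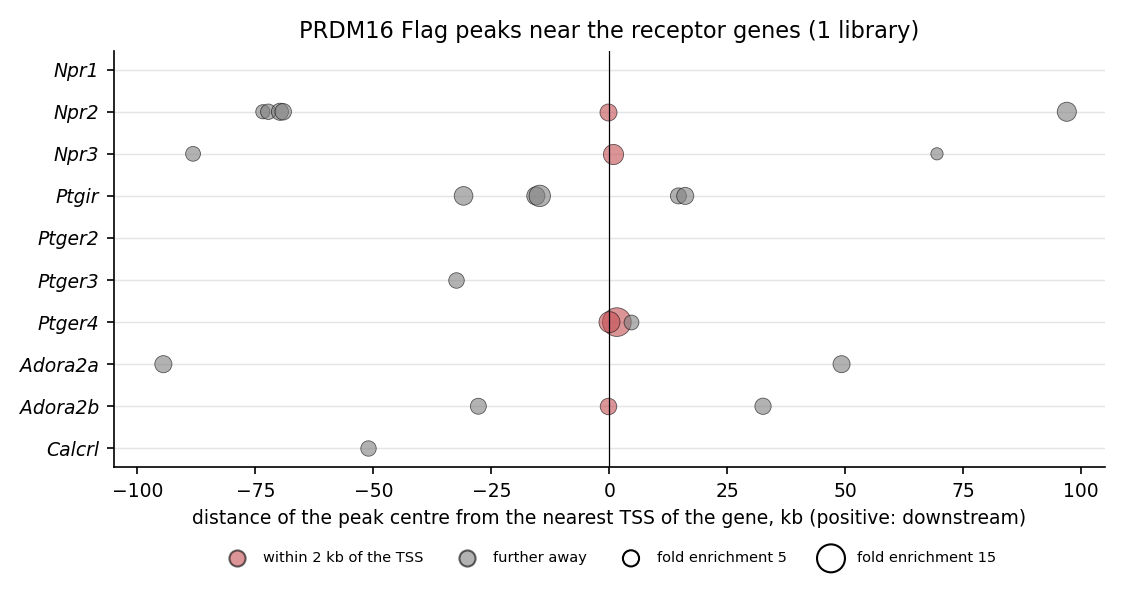
Peaks of the PRDM16 Flag library within 100 kb of the 10 receptor genes, by the distance of the peak centre from the nearest TSS in kb, with positive values downstream. The area of a circle grows with the fold enrichment, and red circles lie within 2 kb of the TSS. *Ptger4* carries the peak with the highest enrichment, 15.82, and *Npr1* and *Ptger2* have no peak in the window.

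*Ptger4* had 3 peaks inside the gene, 2 of them promoter peaks. The peak at chr15:5241936-5243220 spanned 1285 bp, with its centre in coding sequence 1609 bp downstream of the TSS. Its fold enrichment of 15.82 was above that of 99.7% of all peaks (−log10 q of 39.2). A further peak at chr15:5243600-5244683 covered the TSS at 5244187, with a fold enrichment of 8.44 (−log10 q of 13.9), above 92.5% of peaks. The last at chr15:5239509-5239804 lay in an intron, 4.5 kb downstream of the TSS, and was 4.22-fold enriched. *Ptger4* mRNA, as given above, overlapped between the groups.

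*Npr3* had a peak of 1233 bp at chr15:11904364-11905596, with a fold enrichment of 7.81, above 90.3% of peaks (−log10 q of 13.8). Its centre lay 694 bp downstream of the nearer of 2 RefSeq TSSs, at 11905674, in sequence that is a coding exon of 1 transcript and intron of another. The other TSS, at 11907371, was further upstream. The TSS of *Gm5144*, a noncoding gene on the opposite strand, also lay within 2 kb of this peak, so the peak cannot be assigned to *Npr3* alone.

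At *Npr2* the promoter peak lay at chr4:43631342-43631891, upstream of the TSS, with its centre 319 bp away and a fold enrichment of 5.58, above 58.1% of peaks. At *Adora2b* it lay at chr11:62248324-62249241, across the TSS, with its centre 202 bp upstream and a fold enrichment of 5.27, close to the median of the list. Both were of middling enrichment, and no other gene had its TSS within 2 kb of either.

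A peak centre inside the gene was found at *Ptger4* and *Npr3*, 2 of the 10, where 24.4% of all genes had one. The remaining 6 genes had no promoter peak and no peak in the gene body. *Ptgir* had 5 peaks within 100 kb, the nearest 14.7 kb downstream of its TSS and almost as near upstream, at the TSS of *Gng8*. The nearest peak to *Ptger3* was 32.4 kb upstream, close to the TSS of *Zranb2*. For *Adora2a* it was 49.2 kb downstream, for *Calcrl* 51.2 kb upstream at the TSS of *Tfpi*, for *Npr1* 109 kb upstream, and for *Ptger2* 330 kb downstream. *Calcrl* and *Npr1*, the receptors with the lowest *P* values between the groups, were thus without a nearby peak in these fibroblasts, and of the 3 receptors with groups that did not overlap only *Npr3* had one. Since reads were not counted in these lists, how weak a site could have been called is unknown.

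The reference sequence of the forward strand of GRCm38, 75 bases on either side of each summit, is shown for the peaks at the 4 genes, since these are the only PRDM16 sites in or at a receptor gene. The *Ptger4* peak over the TSS has its summit in untranslated sequence, and the 250 bases upstream of the TSS are given for it from RefSeq (build GRCm38.p6), on the reverse strand. Capitals mark matches, on either strand, to an E-box (CACGTG, the element bound by clock activators) or a GC box (GGGCGG).
Ptger4 peak in coding sequence, chr15:5242384-5242534: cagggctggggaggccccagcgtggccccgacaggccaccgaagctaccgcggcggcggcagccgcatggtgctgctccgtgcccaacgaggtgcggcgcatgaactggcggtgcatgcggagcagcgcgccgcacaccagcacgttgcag
Ptger4 peak in the intron, chr15:5239513-5239663: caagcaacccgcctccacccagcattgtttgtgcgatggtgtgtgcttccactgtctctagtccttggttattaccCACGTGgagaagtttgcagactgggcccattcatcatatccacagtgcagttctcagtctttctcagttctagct
Ptger4 upstream of the TSS, chr15:5244188-5244437: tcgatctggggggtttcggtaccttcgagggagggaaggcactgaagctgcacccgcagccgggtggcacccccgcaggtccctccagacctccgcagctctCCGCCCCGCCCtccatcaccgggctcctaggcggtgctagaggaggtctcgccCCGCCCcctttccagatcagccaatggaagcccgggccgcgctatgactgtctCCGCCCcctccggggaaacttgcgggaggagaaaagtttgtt
Npr3 peak, chr15:11905098-11905248: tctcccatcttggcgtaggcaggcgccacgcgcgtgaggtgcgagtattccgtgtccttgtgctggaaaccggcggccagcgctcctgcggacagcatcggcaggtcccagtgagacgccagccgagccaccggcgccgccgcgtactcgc
Npr2 peak, chr4:43631449-43631599: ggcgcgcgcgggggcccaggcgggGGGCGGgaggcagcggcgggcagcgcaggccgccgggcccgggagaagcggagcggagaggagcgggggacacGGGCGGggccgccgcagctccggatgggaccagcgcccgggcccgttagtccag
Adora2b peak, chr11:62248576-62248726: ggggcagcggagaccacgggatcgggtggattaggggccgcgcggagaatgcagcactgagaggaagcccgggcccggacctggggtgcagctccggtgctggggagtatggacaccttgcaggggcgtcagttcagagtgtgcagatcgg

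The sequences were rich in G and C except for the intronic one. In windows of 300 bases around the summit, the GC content was 67.3% for the strongest *Ptger4* peak, 68.0% for *Npr3*, 78.7% for *Npr2*, and 66.7% for *Adora2b*, beside a median of 63.3% over 11258 peaks on chromosomes, and 47.3% for the intronic *Ptger4* peak. Only 5.9% of peaks had a lower GC content than the last. It was also the only one of these windows with an E-box, which starts 1 base after the summit on the forward strand. Of all peak windows, 5.11% held 1. The GC box was found in the windows of *Npr2* (2 matches), *Adora2b* (1, outside the stretch printed), and the *Ptger4* peak over the TSS (1), and in 44.0% of all peak windows. None held a GATA site (AGATAA, in 6.48% of all windows) or a cAMP response element (TGACGTCA, in 0.506%).

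In the 250 bases upstream of the RefSeq TSS, available for 9 of the receptors and not for *Adora2a*, the GC box was found 6 times at *Adora2b* and 4 times at *Ptger4*. It was also found at *Ptger3*, *Npr1*, *Ptgir*, and *Calcrl*, which have no promoter peak, and in 32.7% of 32851 promoters. No E-box, GATA site, or cAMP response element was found upstream of any of the 9. At *Ptger4*, neighbouring GC boxes share 1 base and were counted apart. A match is a description of letters and not of binding.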

How the data were processed

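RNA-Seq libraries were poly(A) selected. The authors deposited TPM by Ensembl gene, 1 column per aorta. The submitters' processing notes list STAR 2.7.8a, RSEM 1.3.3, and GRCm38 without roles, and the strand setting is not given in the sources used here. Reads of *Npr1*, *Npr2*, *Npr3*, *Ptger4*, and *Ptger2* may therefore include those of overlapping genes on the opposite strand. Columns named WT and KO were matched by number to the sample titles. For ChIP-Seq the authors used bowtie2 against GRCm38 and then MACS2 on each library (stated q, 0.01), although the highest q in the list was 0.0483. The control library given to MACS2 is not named. The deposited lists give the fold enrichment as a ratio, −log10 p, −log10 q, and the summit offset, all read as deposited, and an integer score that was not used. The IgG libraries were not analysed here.

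limma 3.58.1 in R 4.3.3 (lmFit, eBayes with trend) was run on log2(TPM + 0.1), without covariates. Replicate numbers were not taken as pairs, since same-numbered aortas had correlations of deviations from −0.07 to −0.00896. RefSeq gave transcripts and GENCODE M21 the gene spans. Python 3.11.15, pandas 2.3.3, pysam 0.24.0, samtools 1.23.1, and matplotlib 3.10.9 were used. Members, gene lists, and tests were chosen with earlier results of these data known. All members were named, with the most abundant genes of each list while others, such as ligands listed at 0, were chosen after their values were seen.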

Additional observations from a re-analysis of the deposited data

How the results depend on the processing

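None of the 9 tested receptors was called under any of 14 alternatives, in which all genes called numbered 110 without a TPM filter, 413 after median-ratio rescaling, 392 after quantile normalization, 48 without limma's mean-variance trend, and 91 to 141 with 1 aorta left out (the 4 lowest without control aorta 1, 2, or 3 or Prdm16SMKO aorta 1), beside 168. *Prdm16* was called in 3 of the 15 settings, median-ratio rescaling (adjusted *P* = 0.024 by limma), quantile normalization (0.033), and without Prdm16SMKO aorta 2 (0.040). With the replicate number as a block (replicate block), which does not pair these aortas, 0 receptors and 184 genes were called. The direction of the difference was the same in every fit for *Ptger3*, *Ptger4*, *Ptgir*, *Adora2a*, *Adora2b*, *Calcrl*, *Npr1*, and *Npr3*, while *Adora2b* could not be fitted with a mean TPM of at least 1 or without Prdm16SMKO aorta 2, where it fell under the filter. *Npr2* ranged from −0.12 to 0.099 on the log2 scale with 1 aorta left out. Without a filter, *Ptger2* had a log2 difference of −0.12 (adjusted *P* = 0.96 by limma). With 1 aorta left out, the difference in the share of *Ptger2* ranged from −0.474 to 0.613 percentage points and that of *Adora2a* from −14.8 to 0.0955 percentage points. The directions of the other 6 shares did not change. The share of all genes with a promoter peak was 26.06%, and 16.94% at a q of at most 1e-05 and 14.89% with the TSS of every GENCODE transcript, a setting added after the data were seen, and the same 4 receptors had one in each. Depth limits the low receptors, *Ptger2* and *Adora2b*, most, and cannot be quantified from TPM.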
